A study of Mus musculus with 2 samples.

Results

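The adrenergic receptor genes were described in polyadenylated RNA of the mouse gonadal fat pad. The 8 genes were Adrb1 and Adrb3 of the beta class, Adra1a, Adra1b and Adra1d of the alpha-1 class, and Adra2a, Adra2b and Adra2c of the alpha-2 class. They were chosen by name, and all 8 were found by Ensembl identifier among the 43346 genes of both deposited gene tables. They had 18 of the 103639 annotated transcripts in the transcript tables. The tissue came from C57BL/6J mice aged 8 weeks, and the labels call the animals littermates of both sexes. There was 1 group of 2 libraries, biological replicates 1 and 2, with no treatment, mutation or second condition. The labels give separate biosamples but the same donor identifier for both libraries, so the spread between them may be partly technical, and the number of animals behind each was not given in the sources used here.

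Adrenergic receptors bind noradrenaline, which sympathetic nerves release in fat, and adrenaline, which the adrenal gland secretes. Beta receptors act through the stimulatory G protein Gs on adenylyl cyclase, and the resulting cyclic AMP activates protein kinase A, which switches on lipolysis, the breakdown of stored triglyceride. Alpha-2 receptors act through the inhibitory protein Gi on the same cyclases and restrain lipolysis, while alpha-1 receptors act through Gq on phospholipase C and calcium. In rodents the beta-3 receptor is known as the main beta receptor of fat cells, and alpha-1 receptors are known for contraction of smooth muscle in vessels and in the male duct.

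The 2 libraries held 47106979 and 54129473 expected counts on genes. An expected count is an estimated number of fragments. The label of the tissue was checked against markers. All 16 adipocyte markers stood at 1 TPM or more in both libraries (TPM is transcript abundance per length, scaled to the same total in each library), with a summed level of 21850 TPM in replicate 1 and 23970 TPM in replicate 2. All 16 markers of the epididymal epithelium did so too, with a summed level of 53140 TPM in replicate 1 and 37350 TPM in replicate 2. By fragments, the epididymal markers held 2.85% of the gene counts in replicate 1 and 2.12% in replicate 2. The adipocyte markers held 2.1% and 2.77%, so by fragments the larger list differed between the libraries. Transcripts of the duct were thus abundant beside those of fat, and the receptor levels below belong to the mixture. The markers of endothelium, stromal progenitors and macrophages, 10 of each, and the 6 of spermatids all stood at this level, as did 5 of 6 Schwann cell and 3 of 6 brown adipocyte markers. Epididymal and spermatid markers belong to male tissue, although the labels name both sexes. The share of each sex in each library was not tested. In such bulk tissue, fewer cells of a type and less RNA per cell cannot be told apart.

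Adrb3 stood far above the other receptors. It was at 566.3 TPM in replicate 1, from 32001 fragments, and at 347.0 TPM in replicate 2, from 24057 fragments, a mean of 456.6 ± 155.1 TPM (SD, n = 2). Adrb3 carried 94.9% of the summed TPM of the 8 genes in replicate 1 and 93.6% in replicate 2, and 91.1% and 88.8% of their fragments. Of the 14303 genes that reached 1 TPM in both libraries (called expressed from here on), 282 had a higher mean level, which places Adrb3 in the top 1.97%. Expressed were 7 of the 8 receptors, against 61.6% of all protein-coding genes and 33.0% of all genes.

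**Figure D1:**
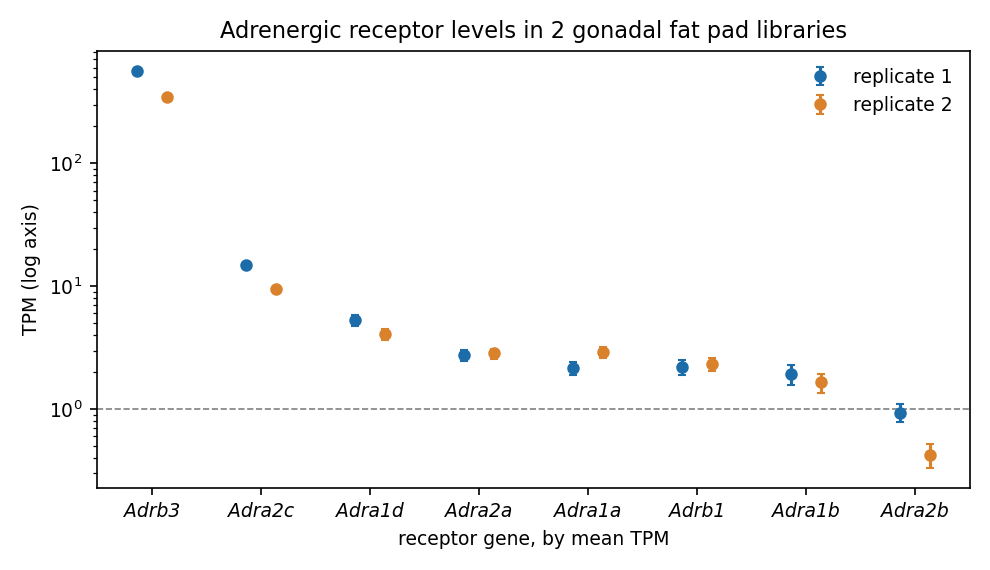
TPM of the 8 adrenergic receptor genes (horizontal axis, ordered by mean) on a log axis, with replicate 1 in blue and replicate 2 in orange. Bars are the authors' own intervals for each library, whose level the headers do not state, and the dashed line is 1 TPM. Adrb3 stands at 566.3 and 347.0 TPM, and the other 7 genes lie at 14.8 TPM or lower.

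The order of the levels was Adrb3, Adra2c, Adra1d, Adra2a, Adra1a, Adrb1, Adra1b and Adra2b. Adrb3 lay 38.2 times above Adra2c in replicate 1 and 36.3 times in replicate 2. The steps from Adrb3 to Adra2c, from Adra2c to Adra1d, from Adra1d to Adra2a, from Adrb1 to Adra1b and from Adra1b to Adra2b were passed without overlap between the values of the libraries, though the authors' intervals of Adrb1 and Adra1b overlapped. Adra2a and Adra1a overlapped, and so did Adra1a and Adrb1, so neither of these pairs of neighbours differed beyond the spread of the 2 libraries. Adra2a was above Adrb1 in both libraries, though the authors' intervals of these genes overlapped in each library. With 2 values for each gene, the lack of overlap is a description and not a test.

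Adrb3 lies on the minus strand of chromosome 8, where its 3 measured transcripts span 27225776 to 27229588 (mm10). An antisense gene, Gm45470, shares 545 nt with its exons in the later annotation M21 and had no row in the tables. The labels call the libraries strand-specific, but the sources used here do not say that strand was used in counting. All 3 transcripts of Adrb3 are annotated as protein-coding.

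The Adrb3 transcripts make a pair of receptor tails, and the coding ends are shown because the level of the gene was divided between them. The first 1163 coding bases, in 1 exon, are the same in all 3. Adrb3-201 and Adrb3-203 then splice to an exon at 27226757 to 27226793 (coding part), and Adrb3-202 splices to an exon at 27226848 to 27226896. In the lines below, from the GENCODE M21 transcript sequences on mm10, the last 24 shared bases are in lower case and the bases after the splice junction, to the stop codon, are in capitals.
Adrb3-201 and Adrb3-203: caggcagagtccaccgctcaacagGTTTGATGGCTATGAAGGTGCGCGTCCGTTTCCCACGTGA
Adrb3-202: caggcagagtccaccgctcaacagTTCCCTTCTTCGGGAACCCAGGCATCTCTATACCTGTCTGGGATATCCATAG
The first form adds 37 coding bases before a TGA stop and has 400 codons in all. The second adds 49 coding bases before a TAG stop and has 404 codons. In mice, such a pair of tails is known as the beta-3a and beta-3b splice forms of the receptor.

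Transcripts with either tail were estimated at high levels in both libraries, but reads on the tails themselves were not counted. Adrb3-202 stood at 275.3 TPM in replicate 1 and 184.4 TPM in replicate 2, which was 48.6% and 53.1% of the gene. Adrb3-203 was at 215.2 TPM and 113.1 TPM, or 37.99% and 32.58%, and Adrb3-201, with an added first exon, was at 75.9 TPM and 49.6 TPM, or 13.4% and 14.3%. Together the transcripts with the Adrb3-201 tail had 291.0 TPM in replicate 1 and 162.6 TPM in replicate 2. The order of these estimates by TPM was thus opposite in the 2 libraries, and neither tail was ahead in both on that scale.

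By fragments the balance was different. Adrb3-202 was assigned 11490 fragments, or 35.9% of the gene, in replicate 1 and 9526, or 39.6%, in replicate 2. These are estimates for the whole transcript and not counts of reads on its tail. Its own last exon is 98 nt long, and its other 1238 nt lie within exons of the other forms. Adrb3-202 is annotated at 1336 nt, against 1864 nt for Adrb3-203 and 2795 nt for Adrb3-201. TPM divides by effective lengths, which are shorter than the annotated ones. The authors' posterior SD of the Adrb3-202 count was 197.7 fragments in replicate 1 and 168.5 in replicate 2, which is small beside the counts. All 3 transcripts were higher in replicate 1, by 1.53 times for Adrb3-201, 1.49 times for Adrb3-202 and 1.90 times for Adrb3-203.

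Adrb1, the beta-1 receptor known for its part in the heart, was low in comparison. It lies at 56722199 to 56733113 on chromosome 19 and was at 2.22 TPM in replicate 1, from 188 fragments, and at 2.35 TPM in replicate 2, from 247 fragments. The exact Poisson intervals of these counts ran from 162.1 to 216.9 and from 217.2 to 279.8, which cover counting error only. Adrb3 exceeded Adrb1 by 255 times in replicate 1 and 148 times in replicate 2. The level of Adrb1 was nearly the same in both libraries while that of Adrb3 was not.

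Among the alpha-2 receptors, Adra2c led. It lies at 35278319 to 35281763 on chromosome 5 and stood at 14.8 TPM in replicate 1, from 1647 fragments, and at 9.56 TPM in replicate 2, from 1320 fragments. Adra2a, the alpha-2A receptor, on chromosome 19 at 54044151 to 54048982, was at 2.78 TPM and 2.85 TPM, from 372 and 473 fragments. Adra2b, on chromosome 2 at 127363208 to 127367221, was at 0.93 TPM and 0.42 TPM, from 131 and 72 fragments. It was the only member under 1 TPM in either library, yet its counts lay well above the floor of 3 fragments, which is worth 0.0213 TPM in the library of replicate 1 and 0.0175 TPM in that of replicate 2. Adra2c exceeded Adra2a by 5.33 times in replicate 1 and 3.35 times in replicate 2.

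Set against the beta class, the alpha-2 class was small. The summed level of the 3 alpha-2 genes was 18.5 TPM for replicate 1 and 12.8 TPM for replicate 2, against 568.5 TPM and 349.3 TPM for the 2 beta genes described here. That made 3.11% and 3.46% of the summed receptor TPM for the alpha-2 class. RNA levels do not give the amount of receptor protein or its binding.

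Among the alpha-1 receptors, Adra1d led. Adra1d, on chromosome 2 at 131545850 to 131562283, was at 5.31 TPM in replicate 1 and 4.10 TPM in replicate 2, from 333 and 319 fragments. Adra1a, on chromosome 14 at 66635251 to 66771168, was at 2.17 TPM and 2.90 TPM, from 293 and 465 fragments, and Adra1b, on chromosome 11 at 43774606 to 43901210, was at 1.94 TPM and 1.65 TPM, from 157 and 151 fragments. Adra1d exceeded Adra1a by 2.45 times in replicate 1 and 1.41 times in replicate 2, and Adra1b by 2.74 and 2.48 times. Adra1a was the only alpha-1 gene that was higher in replicate 2. The summed level of the class was 9.42 TPM for replicate 1 and 8.65 TPM for replicate 2, or 1.58% and 2.33% of the receptor total. An antisense gene, Gm14285, shares 147 nt with the exons of Adra1d and had 3 and 2 fragments. Smooth muscle markers were present beside these genes, 10 of 10 at 1 TPM or more, with a summed level of 2838 TPM in replicate 1 and 2891 TPM in replicate 2. Their part in the alpha-1 levels was not tested.

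Adra1a also had more than 1 coding end. Its first 1269 coding bases are shared by Adra1a-202, Adra1a-203 and Adra1a-205. Adra1a-203 then splices to a last exon that adds 12 coding bases, while Adra1a-202 and Adra1a-205 read on for 129 coding bases, which gives 427 and 466 codons. The ends are shown as above, on the plus strand of chromosome 14 in mm10, since the short end carried most of the level of the gene.
Adra1a-203: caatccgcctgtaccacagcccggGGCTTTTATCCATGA
Adra1a-202 and Adra1a-205: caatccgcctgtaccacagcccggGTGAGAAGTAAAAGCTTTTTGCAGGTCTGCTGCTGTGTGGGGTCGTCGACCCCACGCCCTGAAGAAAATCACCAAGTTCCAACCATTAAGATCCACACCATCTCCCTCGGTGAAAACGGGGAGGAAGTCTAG
Adra1a-203 held 65.4% of the gene in replicate 1, at 1.42 TPM, and 52.4% in replicate 2, at 1.52 TPM. Adra1a-205 was at 0.38 TPM in replicate 1 and 0.91 TPM in replicate 2. The short form was nearly equal between the libraries, and the higher value of Adra1a in replicate 2 lay mostly in Adra1a-205. The authors' intervals for Adra1a-205 overlapped, reaching from 0.0544 up to 0.638 TPM for replicate 1 and from 0.515 up to 1.24 TPM for replicate 2. Adra1a-202 was at 0.14 and 0.25 TPM, the retained-intron form Adra1a-204 at 0.22 and 0.23 TPM, and Adra1a-201 was listed at 0 in both.

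The transcripts of Adra2b could not be separated, nor could Adra1b-202 and Adra1b-204. Adra1b-202, annotated as non-coding, and the coding Adra1b-204 have the same sequence in M21, and the tables gave them equal counts of 49.7 each in replicate 1 and 36.2 each in replicate 2. Adra1b-203 was at 1.00 TPM and 1.10 TPM, and Adra1b-201 was listed at 0 in both. Adra2b-201 and Adra2b-202 are single exons with the same end that differ in where they begin, and their coding sequences are annotated at 1359 and 1344 nt. They were at 0.47 TPM each in replicate 1, and all 72 fragments of replicate 2 were placed on Adra2b-201. The authors' posterior SD of 27.2 fragments for either form in replicate 1, against 65.0 and 66.0 fragments, shows how little the reads fix this division. Adrb1, Adra1d, Adra2a and Adra2c had 1 transcript each in the tables.

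**Figure D2:**
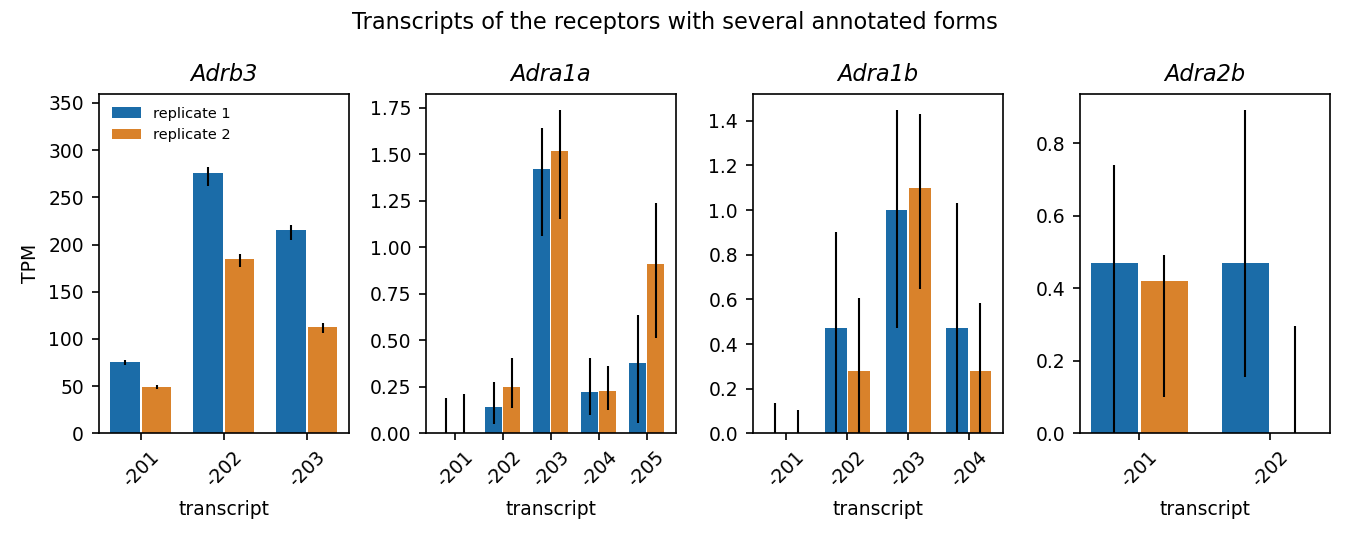
TPM of each transcript of the 4 receptor genes with several annotated forms, in replicate 1 (blue bars) and replicate 2 (orange bars), with a separate linear axis for each gene. Black lines are the authors' intervals, of a level that the headers do not state. Adrb3-202 is the highest Adrb3 form at 275.3 and 184.4 TPM, and the intervals of the Adra1b and Adra2b forms are wide beside their levels.

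The 2 libraries differed most in Adrb3 and Adra2c among the 7 receptors at 1 TPM or more. The log2 ratio of (TPM + 1), replicate 1 over replicate 2, was 0.71 for Adrb3, 0.58 for Adra2c, 0.44 for Adra2b, 0.31 for Adra1d and 0.15 for Adra1b. It was -0.03 for Adra2a, -0.06 for Adrb1 and -0.30 for Adra1a. The added 1 understates the difference of low genes, and without it Adra2b was 2.21 times higher in replicate 1, past the 2-fold mark that 7.77% of the genes averaging at least 20 fragments passed on that scale. All 8 genes averaged at least 20 fragments over the libraries, and 0 of 8 lay over 2-fold apart by this ratio, against 2.70% of the 16920 genes with such counts. Of those genes 1.54% were over 2-fold higher in replicate 1 and 1.15% in replicate 2. In either direction, 7.92% of these genes had a larger log2 ratio than Adrb3, and 13.0% a larger one than Adra2c.

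**Figure D3:**
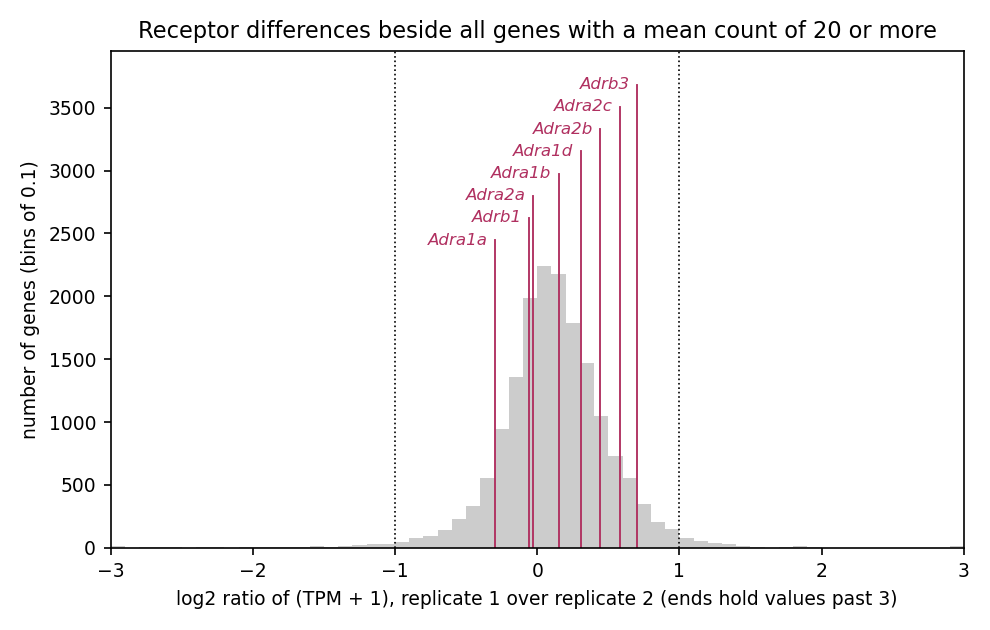
Histogram of the log2 ratio of (TPM + 1), replicate 1 over replicate 2, over the 16920 genes that averaged at least 20 fragments (vertical axis, number of genes). Red lines mark the 8 receptors and dotted lines a 2-fold difference. The receptors lie between -0.30 for Adra1a and 0.71 for Adrb3, inside the dotted lines.

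The median log2 ratio of the receptors was 0.23, and that of all genes with such counts was 0.11. Scaling by the trimmed mean of M values (TMM) in edgeR brought the median of all genes to -0.01 and that of the receptors to 0.10, and it left Adrb3 at 0.54 and Adra2c at 0.43. The same 5 receptors were higher in replicate 1 under each scaling tried. Of all genes with such counts, 64.8% were higher in replicate 1 on the TPM scale, so 5 of 8 is a share near the background on that scale. The share of all genes under the other scalings was not counted.

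Markers of the mixed tissue moved between the libraries as well. The median log2 ratio, replicate 1 over replicate 2, was 0.61 for the epididymal markers, of which 14 of 16 were higher in replicate 1. It was -0.17 for the adipocyte markers, of which 6 of 16 were higher in replicate 1. All 6 spermatid markers were higher in replicate 1, with a median of 0.61 and a summed level of 554.7 TPM in that library, against 368.4 TPM in replicate 2. Within each list the markers spread widely, between -0.81 and 1.32 for the epididymal, between -2.63 and 0.86 for the adipocyte and between 0.20 and 1.55 for the spermatid markers. Adrb3 had a larger ratio than 12 of the 16 epididymal markers, 15 of the 16 adipocyte markers and 3 of the 6 spermatid markers. The part of tissue mixture in the Adrb3 difference was not tested.

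Other receptors of fat gave a measure of how high Adrb3 stood. The lists used held 25 other aminergic receptors, 12 other Gs-coupled receptors and 9 receptors, for fatty acids, purines and further signals, that mostly couple to Gi. Of these 46 genes none had a higher mean TPM than Adrb3, and 7 had a higher one than Adra2c. The highest was Ffar2, a receptor for short-chain fatty acids, at 37.6 TPM in replicate 1 and 47.7 TPM in replicate 2, and Adrb3 exceeded it by 15.0 and 7.27 times. Of the aminergic receptors, the nearest relatives of the family, 4 of 25 were at 1 TPM or more in both libraries, led by Drd4 at 7.58 and 5.82 TPM, Chrm3 at 2.23 and 3.13 TPM and Htr5b at 3.23 and 1.5 TPM.

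The receptors that share Gs or Gi with the adrenergic ones were at moderate levels. Of the Gs list, 10 of 12 were expressed, with the thyrotropin receptor Tshr highest at 27.2 and 30.0 TPM. Adora2a, an adenosine receptor, was at 6.33 and 9.43 TPM, and Vipr1, a receptor for vasoactive intestinal peptide, at 9.21 and 5.79 TPM. All 9 of the mostly Gi-coupled list were expressed, and 7 of them were higher in replicate 2, unlike Adra2c. The antilipolytic adenosine receptor Adora1 was at 30.7 and 40.5 TPM and the succinate receptor Sucnr1 at 25.02 and 44.62 TPM, both above Adra2c in each library.

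**Figure D4:**
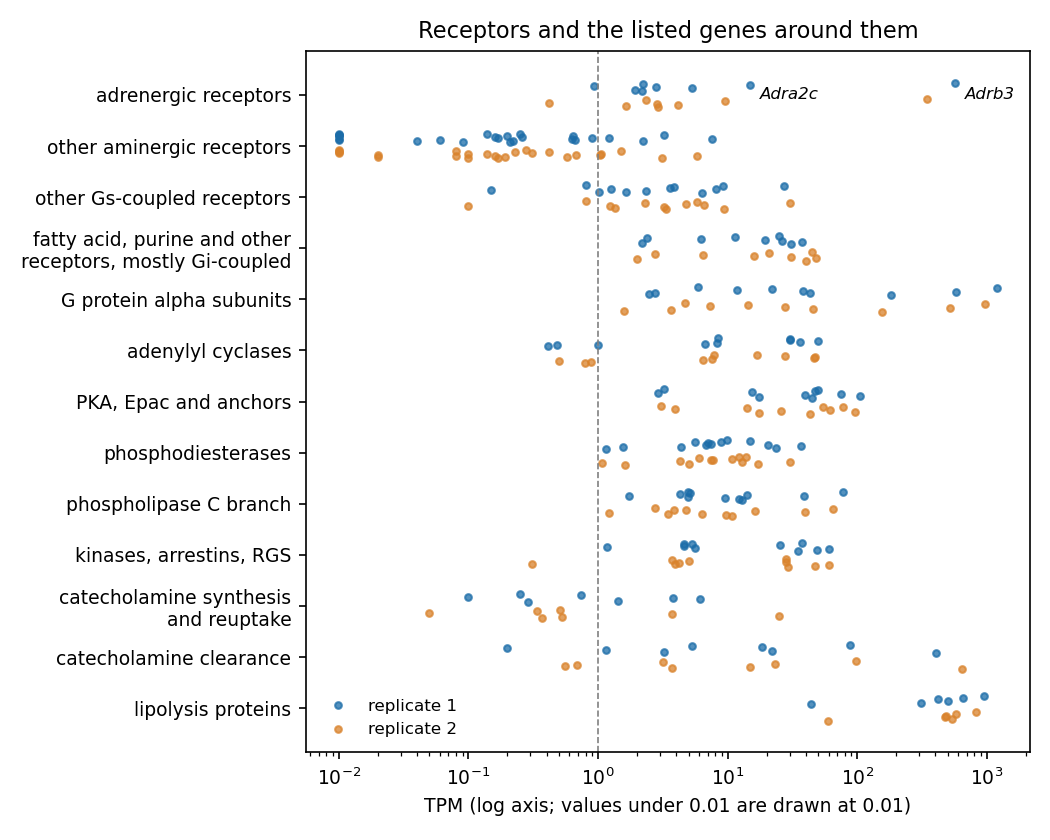
TPM on a log axis of the adrenergic receptors and of 12 lists of genes around them, each point a gene in replicate 1 (blue, upper) or replicate 2 (orange, lower). The dashed line is 1 TPM. Adrb3 lies at 566.3 and 347.0 TPM, among the G protein and lipolysis genes and right of every other receptor drawn, while the other adrenergic receptors lie with the remaining receptor lists.

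The proteins that carry the signal onward were expressed. All 10 G protein alpha subunits were, led by Gnas, which encodes the Gs subunit, at 1192 and 970.3 TPM, Gnai2, a Gi subunit, at 573.7 and 518.8 TPM, and Gna11, of the Gq family, at 183.1 and 155.2 TPM. Adrb3 stood at 47.5% of the level of Gnas in replicate 1 and 35.8% in replicate 2. Of the adenylyl cyclases, 7 of 10 were expressed, with Adcy6 at 49.3 and 46.9 TPM, Adcy5 at 36.2 and 46.4 TPM, and Adcy7 at 30.2 and 27.5 TPM. The log2 ratio of (TPM + 1), replicate 1 over replicate 2, was 0.30 for Gnas and lay between -0.35 for Adcy5 and 0.13 for Adcy7 among these 3 cyclases. Adcy8, at 30.4 and 16.7 TPM, had a ratio of 0.82, above that of Adrb3.

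Downstream of cyclic AMP, all 10 genes of protein kinase A, the cyclic AMP sensors Epac and the anchoring proteins were expressed. Prkaca, the catalytic subunit, was at 105.5 and 96.8 TPM, Prkar1a, a regulatory subunit, at 75.1 and 61.4 TPM, and Rapgef3, which encodes Epac, at 49.8 and 78.0 TPM. Prkar2b, the regulatory subunit typical of fat, was at 46.8 and 54.4 TPM. All 13 phosphodiesterases measured were expressed, led by Pde3b, through which insulin lowers cyclic AMP in fat cells, at 36.7 and 30.3 TPM, Pde1a at 23.6 and 17.1 TPM and Pde4a at 20.6 and 12.8 TPM. The lipolysis genes Pnpla2, a triglyceride lipase, Plin1, a lipid droplet protein, and Lipe, the hormone-sensitive lipase, lay at 948.5 and 816.3 TPM, 653.7 and 578.2 TPM, and 501.5 and 473.6 TPM. Adrb3 lay between Lipe and Plin1 in replicate 1 and below all 3 in replicate 2.

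The branch of the alpha-1 receptors was present at levels near those of the adenylyl cyclases. The median of the cyclases was 8.31 TPM in replicate 1 and 7.71 TPM in replicate 2. That of the list of protein kinase A, Epac and anchors was higher, at 41.9 and 34.6 TPM. All 11 genes of phospholipase C, the calcium channels of the endoplasmic reticulum and protein kinase C were expressed, at a median of 9.46 TPM in replicate 1 and 6.37 TPM in replicate 2. Prkcd, a protein kinase C, was highest at 77.3 and 64.9 TPM, then Plcb3, a phospholipase C, at 38.9 and 39.3 TPM, and Plcb4 at 14.1 and 16.4 TPM. Of the genes that switch receptors off, 9 of 10 were expressed. They were led by Grk2, a receptor kinase, at 60.7 and 60.8 TPM, Arrb2, an arrestin, at 48.5 and 46.8 TPM, and Rgs5, a regulator of G protein signalling found in pericytes, at 37.6 and 28.3 TPM.

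Genes that make catecholamines were mostly low, and genes that clear them were not. Of the synthesis and reuptake list, 2 of 7 were expressed. Th, the first enzyme of synthesis, was at 0.25 and 0.51 TPM from 15 and 39 fragments. Pnmt, which turns noradrenaline into adrenaline, was at 6.14 and 24.9 TPM, from 148 and 1076 fragments, and it lay over 2-fold apart, higher in replicate 2. Slc18a1, a vesicular amine transporter, was at 3.81 and 3.70 TPM, and Ddc, the decarboxylase, at 1.42 and 0.53 TPM. Of 10 sympathetic neuron markers 1 was expressed, which was Npy at 192.8 and 333.5 TPM, while the noradrenaline transporter Slc6a2 was at 0.74 and 0.34 TPM. The median of these 10 markers was 0.105 and 0.19 TPM, so Npy stood apart from them. Neither the source of Npy nor the nerve supply was tested. Of the clearance list, 6 of 8 were expressed, among them Sult1a1, a sulfotransferase, at 88.0 and 96.9 TPM, and Slc22a3, a low-affinity amine transporter, at 18.5 and 23.0 TPM. Both of these, unlike Adrb3, were higher in replicate 2. In the whole clearance list, 5 of 8 genes were higher in replicate 2 and 3 in replicate 1.

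The protein-coding genes nearest to Adrb3 in log2(TPM + 1) of both libraries were mt-Nd4l, H2afz and Slc7a5, at distances of 0.036, 0.052 and 0.078. For Adra2c they were Atp1b2, Clcn6 and Adss, within 0.024, and for Adra1d they were Zfp715, Dpyd and Zfp428, within 0.027. Such likeness rests on 2 libraries only and describes level and direction.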

How the data were processed

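Polyadenylated RNA over 200 nt was sequenced as 76 nt pairs, per the labels. The authors deposited, for each library, expected counts, TPM and FPKM per gene and transcript with posterior means, the percent of the gene on each transcript (IsoPct), effective lengths, posterior SDs and TPM interval bounds given as a score here, per the file headers. The accompanying notes name mm10 and GENCODE M4; the sources used here name neither the aligner nor the quantifier. TPM was scaled over all deposited rows, and rows that are not Ensembl genes held 3.41% of it in replicate 1 and 2.53% in replicate 2. The deposited mm9 junction and contig tables were not used.

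Symbols matched 42462 of 43346 genes. Transcript types and positions are from GENCODE M21 (mm10), where 15 of the 18 receptor transcripts have the same length as in the tables. Those that differ are the only transcripts of Adra2a, Adra2c and Adrb1. They were quantified at 3801, 3196 and 2491 nt and have 4832, 3445 and 2952 nt in M21. Expressed means 1 TPM or more in both libraries. The ratio is replicate 1 over replicate 2 of TPM + 1, for genes that averaged at least 20 fragments. Count intervals are exact Poisson at 95%, and these and the floor cover counting error only. A chi-square comparison of the libraries gave 136.1 per degree of freedom, so they are not copies. With 1 group there was no test and no p-value. TMM scaling used edgeR 4.0.16 and size factors DESeq2 1.42.0, on rounded expected counts, in R 4.3.3, and the rest ran in Python 3.11.15. The receptors and the 12 pathway and 10 marker lists were chosen with earlier results of these data known. Named are all receptors, the 3 highest genes of each list around them (1 of the clearance list is not reported here), genes needed to follow the signal and the 3 nearest genes of the top 3 receptors. All 14 phosphodiesterases listed but 1 were matched. Adcy8, Npy and Slc6a2 were named after their values were seen.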

Additional observations from a re-analysis of the deposited data

How the results depend on the processing

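Alternatives were other thresholds (0.5 and 2 TPM), posterior mean TPM, FPKM, TPM of protein-coding transcripts only, a pseudocount of 0.1, other count minimums, TMM and DESeq2 scaling, and each library alone. The number of receptors expressed was 7 at 0.5 TPM, by posterior mean TPM, by FPKM, by protein-coding TPM and in each library alone, and 6 at 2 TPM. Without replicate 1 and without replicate 2 the Adrb3 share of the receptor TPM was 93.6% and 94.9%, the Adrb3-202 share of Adrb3 was 53.1% and 48.6%, the receptors expressed were 7 and 7, and the genes of the lists around them expressed were 98 and 101, against 97 of 131 in both libraries. In each of those runs 6 of 8 receptors kept their rank in level, and the others were Adra1a with Adra2a or Adrb1. By expected count in place of TPM, the Adrb3-202 share was 37.8% and no longer 50.9%, because the count carries no division by length. With no pseudocount, chosen after seeing the data, 1 receptor, Adra2b, lay over 2-fold apart (log2 ratio 1.15), against 7.77% of the genes averaging at least 20 fragments. A pseudocount of 0.1 gave it 0.99. None of the ratios changed sign under these alternatives. Adra2b rests on 131 and 72 fragments, and each transcript of Adra1a, Adra1b and Adra2b, other than Adra1a-203, on 108.1 or fewer, so depth limits their order. No paired analysis was possible because there is 1 group.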
